A study of Mus musculus with 12 samples.

Results

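The genes described here encode the constitutive proteasome, the form of the protease that nearly every cell carries. They were taken as every array target whose name starts with PSMA, PSMB, PSMC or PSMD, leaving out the immune subunits Psmb8, Psmb9 and Psmb10. That rule gave 37 genes with 65 probes, among 45281 probes on the array. A probe counted as detected at a detection p under 0.01 against the negative-control beads. For each gene the brightest probe detected on both arrays of at least 1 group was used, and 30 of the 37 genes had such a probe. All 30 of these probes were detected on 12 of 12 arrays, so none of them passed through 1 group alone. The core particle (Psma and Psmb genes) had 16 genes on the array and 11 that passed. The regulatory particle (Psmc and Psmd genes) had 20, of which 18 passed. Psmc3ip also starts with PSMC, but its protein is a cofactor of meiotic recombination and no part of the proteasome, so it was kept apart from the 29 subunits and assembly factors. The core genes that did not pass were Psma1, Psma3, Psma6, Psma8 and Psmb11, the last 2 being a testis form and a thymus form. Of the regulatory genes, Psmd3 was detected on 0 arrays and Psmc6 on 4, and neither passed.

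Cells came from the mouse myoblast line C2C12, which multiplies in serum-rich medium and, when serum is lowered, leaves the cell cycle and fuses into muscle fibres. They had received either DMSO, the solvent, or 10 uM embelin, a plant quinone that the series title presents as an inhibitor of the acetyltransferase PCAF and that is also known to bind XIAP. The 6 groups, of 2 arrays each, were DMSO and embelin cells in growth medium (20% fetal bovine serum) and after 24 h or 48 h in a differentiation medium that held 2% horse serum. All groups share the cell line. For the growth-medium groups the labels give 0 h in 1 field and 24 h in another, so the time those cells spent with embelin is uncertain. The labels do not say that the replicates were separate cultures, and p-values therefore measure only the spread between these arrays, which may be technical.

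The proteasome degrades proteins tagged with ubiquitin. Its core is a barrel: outer rings of alpha subunits gate the entry, and inner rings of beta subunits hold the catalytic sites, which are carried by Psmb5, Psmb6 and Psmb7. The regulatory particle caps the barrel. In its base, the Psmc ATPases unfold the substrate and the large scaffold proteins Psmd1 and Psmd2, with the receptor Psmd4, hold ubiquitin or its carriers. In its lid, Psmd14 cuts the ubiquitin chain away, and the other lid subunits hold it in place. Psmd5, Psmd9 and Psmd10 are chaperones that help assemble the base and leave before the particle is complete. In muscle, the proteasome is known for the turnover of myogenic regulators during differentiation and for the breakdown of myofibrillar proteins in wasting.

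Each array detected between 15031 and 16314 probes, and 11452 genes were tested. Values are log2 normalized signals, and a difference of 1 is a factor of 2. A constant of 16 was added to the signal before the logarithm, which understates changes of dim probes. A gene was called where limma gave a Benjamini-Hochberg adjusted p under 0.05 over all genes tested. Signals of different probes are not compared with each other. Replicate 2 of embelin in growth medium stood apart: its root mean square distance to the other 3 growth-medium arrays was 0.311 to 0.332 log2 units over the genes tested, against 0.190 to 0.219 among those 3. Of 7 muscle markers, 6 were tested, and Myf5 was detected on 0 arrays. Their summed signal ran from 3182 to 3418 in DMSO cells in growth medium, and was 3012 and 5568 in embelin cells there. It was 17563 to 18713 in DMSO cells and 16524 to 17183 in embelin cells at 24 h, then 39577 to 40886 and 18763 to 23337 at 48 h. Of the markers of other cell types, 0 of 3 for adipocytes and 0 of 2 with a probe for bone were detected on any array. Detection on any array was found for 2 of 4 macrophage markers (Cd68 and Csf1r, each on 1 array; Ptprc and Adgre1 on 0) and 1 of 3 endothelial markers (Tek, on 1 array). It was also found for 2 of 3 epithelial markers, Cdh1 on 2 arrays and Krt14 on 10, while Epcam was detected on 0.

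Since many of the members moved together, the DNA upstream of a few of them is shown: Psmb3 and Psmc5, with the largest differences under embelin in the core and in the regulatory particle, Psmd14 and Psmb5, an enzyme of the lid and a catalytic subunit, and Psmd8, which was called lower in no comparison. Each is the 250 bases before the annotated start of the gene in RefSeq (build GRCm38.p6), on the gene's own strand, 5′ to 3′. Capitals mark matches to CCAAT or its reverse complement ATTGG, the box bound by NF-Y, and to TGACNNNGC, the letters of the antioxidant response element that Nfe2l1 and Nfe2l2 bind.
Psmb3 (chr11:97703184-97703433, plus strand): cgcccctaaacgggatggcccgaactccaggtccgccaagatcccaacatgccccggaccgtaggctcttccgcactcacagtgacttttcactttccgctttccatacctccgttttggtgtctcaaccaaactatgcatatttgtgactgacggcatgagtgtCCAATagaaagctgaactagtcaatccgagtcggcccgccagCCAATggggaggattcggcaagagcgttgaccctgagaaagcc
Psmc5 (chr11:106255935-106256184, plus strand): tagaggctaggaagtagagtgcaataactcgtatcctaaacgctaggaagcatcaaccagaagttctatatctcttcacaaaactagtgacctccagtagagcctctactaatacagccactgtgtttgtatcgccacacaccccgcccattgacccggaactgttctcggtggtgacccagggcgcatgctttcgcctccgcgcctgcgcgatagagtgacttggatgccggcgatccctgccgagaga
Psmd14 (chr2:61711444-61711693, plus strand): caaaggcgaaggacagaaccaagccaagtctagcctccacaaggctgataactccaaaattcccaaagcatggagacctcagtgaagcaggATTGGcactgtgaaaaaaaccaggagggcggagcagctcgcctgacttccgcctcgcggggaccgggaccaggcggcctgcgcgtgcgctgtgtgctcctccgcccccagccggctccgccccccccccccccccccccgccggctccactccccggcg
Psmb5 (chr14:54617996-54618245, minus strand): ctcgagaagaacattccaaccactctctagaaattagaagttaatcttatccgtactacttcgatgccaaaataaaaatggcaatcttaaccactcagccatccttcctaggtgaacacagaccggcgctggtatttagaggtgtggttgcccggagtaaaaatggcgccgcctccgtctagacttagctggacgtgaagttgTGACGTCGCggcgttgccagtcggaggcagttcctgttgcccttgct
Psmd8 (chr7:29180674-29180923, minus strand): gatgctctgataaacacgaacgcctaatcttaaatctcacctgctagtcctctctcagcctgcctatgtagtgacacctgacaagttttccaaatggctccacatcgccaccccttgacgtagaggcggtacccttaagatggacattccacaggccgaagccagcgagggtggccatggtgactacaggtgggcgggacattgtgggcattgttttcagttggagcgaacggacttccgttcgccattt

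Psmb3 held CCAAT at 85 to 81 and at 43 to 39 bases before the start, Psmd14 held ATTGG at 159 to 155, and Psmb5 held TGACGTCGC at 47 to 39. These letters, and CAGCTG, an E-box of the kind MyoD binds, were searched on both strands; the matches shown do not overlap each other. Promoter windows were on hand for 25 of the 30 members, as 26 windows. TGACNNNGC was found in 4 of the 26 (those of Psmb5, Psmb6, Psmd9 and Psmd12) and in 10.2% of all 32851 mouse windows of this length. CCAAT was found in 9 of 26 and in 33.8% of all windows, and CAGCTG in 2 of 26 and in 13% of all. A match is a description of these letters only.

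**Figure D1:**
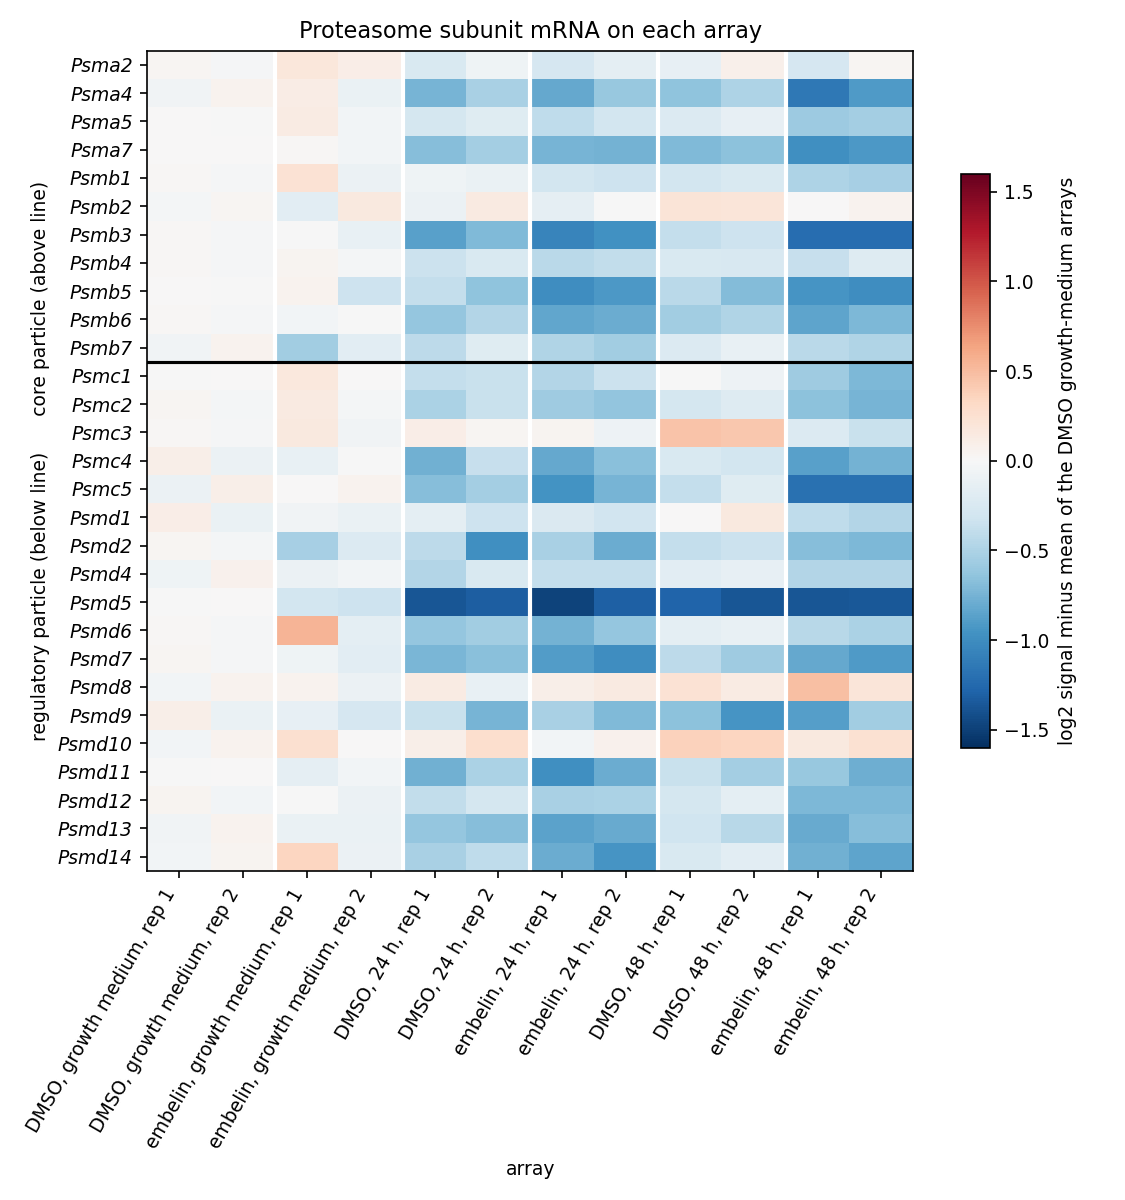
Log2 signal of the 29 subunits and assembly factors (rows) on each of the 12 arrays (columns), less the mean of the DMSO growth-medium arrays of the same probe; blue is lower and red is higher. The 11 core genes are above the black line and the 18 regulatory genes below it. The 4 growth-medium columns are pale, most rows turn blue at 24 h, and at 48 h the embelin columns are bluer than the DMSO columns.

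The first comparison asked how proteasome mRNA moves as myoblasts given DMSO begin to differentiate. Between growth medium and 24 h in differentiation medium, DMSO cells lowered the mRNA of 20 of the 29 genes, and raised that of 0. Of the core genes 6 of 11 fell and of the regulatory genes 14 of 18, where 31.5% of all genes tested were called lower and 26.1% higher. The median log2 difference was -0.31 for the core and -0.50 for the regulatory particle, and -0.06 over all genes. The fall took in the alpha ring (2 of 4), the structural beta subunits (2 of 4), the catalytic subunits (2 of 3), the ATPases (4 of 5), the base scaffold and receptor (2 of 3), the lid (6 of 7) and the base chaperones (2 of 3).

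Psmb3, a structural subunit of the beta ring, had the largest fall of the core. It read 13.19 and 13.15 in DMSO cells in growth medium, 12.30 and 12.46 at 24 h, and 12.79 and 12.84 at 48 h. The arrays of the 3 stages did not overlap: growth medium was highest, 24 h lowest and 48 h in between. At 24 h it had decreased by 42.1% (log2 difference -0.79, SE 0.10, adjusted p = 4.99e-05). The alpha-ring genes Psma4 and Psma7 followed with -0.64 (SE 0.14, adjusted p = 0.00216) and -0.61 (SE 0.09, adjusted p = 0.000232).

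Psmd5, the base chaperone that holds an ATPase module before assembly, had the largest fall among the 29 proteasome genes. It read 9.35 and 9.36 in DMSO cells in growth medium, 7.98 and 8.04 at 24 h, and 8.08 and 7.99 at 48 h. The arrays at both later times lay more than a log2 unit under those in growth medium and overlapped each other. Its signal at 24 h had decreased by 60.7% (log2 difference -1.35, SE 0.10, adjusted p = 1.94e-06). In the embelin cells it read 9.06 and 9.03, then 7.88 and 8.05, then 7.99 and 8.0, close to the DMSO cells at each later time. Among the other regulatory genes the scaffold Psmd2 (-0.71, SE 0.17, adjusted p = 0.00517) and the lid subunit Psmd7 (-0.70, SE 0.10, adjusted p = 0.00015) had the next largest falls.

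The subunits that passed no test in this comparison were Psma2, Psma5, Psmb1, Psmb2, Psmb7, Psmc3, Psmd1, Psmd8 and Psmd10, with log2 differences from -0.31 (Psmb7) to 0.18 (Psmd10). The count of regulatory genes dropped from 14 to 8 without DMSO at 24 h, replicate 1. Scaling each array by its median moved the median of all genes to -0.30 in this comparison, with 1951 genes called higher and 5099 lower in place of 2989 and 3610. The core and regulatory medians were then -0.63 and -0.74, with 10 core calls.

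By 48 h, fewer genes of the DMSO cells were called lower than at 24 h. Against growth medium, 6 of 11 core genes were lower and 0 higher, and 5 of 18 regulatory genes were lower and 2 higher, with 34.6% of all genes called lower and 27.4% higher. In the core these were Psma7 (-0.68, SE 0.09, adjusted p = 7.72e-05), Psmb5 (-0.57, SE 0.15, adjusted p = 0.00552), Psma4 (-0.57, SE 0.14, adjusted p = 0.00398), Psmb6, Psmb3 and Psmb4. In the regulatory particle the base chaperones Psmd5 (-1.32) and Psmd9 (-0.79, SE 0.17, adjusted p = 0.00167) fell most, followed by the lid subunits Psmd7 (-0.49), Psmd11 and Psmd13. The ATPase Psmc3 was higher (0.45, SE 0.11, adjusted p = 0.00376), as was the chaperone Psmd10 (0.35, SE 0.11, adjusted p = 0.0182). The Psmd10 difference was -0.02 (adjusted p = 0.897) when arrays were scaled by their median, and the Psmc3 call was lost there (adjusted p = 0.355). Psmd10 was also not called when the replicate 1 DMSO array in growth medium (log2 difference 0.30) or either DMSO array at 48 h (0.34 and 0.37) was left out. Its call was lost too with scaling by the 75th percentile (adjusted p = 0.272), the deposited log2 values (0.353) and the mean of all detected probes (0.063). Its dimmer probes, at 0.28 and 0.03, were not called. Psmb5 was not called when the replicate 2 DMSO array at 48 h was left out (adjusted p = 0.0524), nor Psmb3 when the replicate 1 DMSO array in growth medium was (adjusted p = 0.0506). Psmb4, at an adjusted p of 0.0451, lost its call with the replicate number as a block (adjusted p = 0.0501) and without any 1 of the 6 DMSO arrays or either embelin array at 24 h (adjusted p = 0.051 to 0.158). Psmd11 lost its call without the replicate 2 DMSO array at 48 h, and with the mean of all detected probes (adjusted p = 0.0546). Its dimmer detected probe was not called (-0.14, adjusted p = 0.424 over all detected probes). With scaling by the array median, the median of all genes stood at -0.33, with 2103 called higher and 5425 lower in place of 3139 and 3964. The regulatory median was then -0.56, and the regulatory calls numbered 13.

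Set directly against 24 h, 5 of the 29 genes had risen at 48 h and 0 had fallen: Psmb3 in the core, and Psmc1, Psmc3, Psmc5 and Psmd1 in the base. Over all genes 15.2% were called higher and 17.6% lower. All 5 ATPases and all 7 lid genes had a difference above 0, with medians of 0.32 and 0.21, but by the probes used 3 ATPases and 0 lid genes were called. With p adjusted over all detected probes, 3 of 19 other probes were called, all higher. They were dimmer probes of the lid genes Psmd14 (0.44, adjusted p = 0.0142) and Psmd12 (0.63, adjusted p = 0.0325) and of the ATPase Psmc4 (0.43, adjusted p = 0.0213). Dimmer probes of Psmc5 (0.26) and Psmd1 (0.23 and 0.11) were not called. Psmb3 rose by 35.3% (0.44, SE 0.10, adjusted p = 0.00625). Psmc3 rose by 30.1% (0.38, SE 0.11, adjusted p = 0.0198), Psmc5 by 26.0% (0.33, SE 0.12, adjusted p = 0.0474) and Psmd1 by 24.8% (0.32, SE 0.11, adjusted p = 0.0487). In this comparison 13 of 18 regulatory genes had both arrays at 48 h above both at 24 h, and 0 had both below, against 31.5% and 35.5% of all genes. Psmc1, Psmc3, Psmc5 and Psmd1 all lost their calls without either DMSO array at 48 h or without replicate 2 of DMSO at 24 h. Psmc1, Psmc5 and Psmd1 also lost theirs without either DMSO array in growth medium or replicate 1 of DMSO at 24 h. Leaving out either embelin array at 48 h ended the calls of Psmc5 and Psmd1, and leaving out either embelin array at 24 h that of Psmd1. The Psmb3 call stood in every alternative run.

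Embelin was then compared with DMSO at each stage. In growth medium 0 of 29 genes were called, as were 0 of all 11452 genes (0%). Without replicate 1 of embelin there, 311 genes were called higher and 27 lower, and still 0 members. With all arrays 2 members and 674 genes had an unadjusted p under 0.05 in limma. The median difference was 0.00 for the core and -0.06 for the regulatory particle. After 24 h, 0 members were again called, where 0.0524% of all genes were. At an unadjusted p under 0.05 limma gave 5 members and 1265 genes. At 24 h 27 of the 29 differences were below 0, and 17 genes had both embelin arrays under both DMSO arrays and 0 had both above, against 22.3% and 22.5% of all genes. The medians were -0.15 for the core and -0.13 for the regulatory particle, and 0.00 over all genes. The lowest adjusted p among the members at 24 h was 0.285, for Psmb5.

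At 48 h embelin cells held less mRNA of 17 of the 29 genes and more of 0. Of the core 6 of 11 were lower and of the regulatory particle 11 of 18, with 19.9% of all genes called lower and 19.8% higher. The median log2 differences were -0.27 and -0.37, and 0.00 over all genes. In these bulk samples, fewer cells with an mRNA and less of it per cell cannot be told apart. The base ATPases were lower in 5 of 5, with a median of -0.60 and single values from -0.46 (Psmc2) to -0.91 (Psmc5). The alpha ring was lower in 3 of 4 genes, the structural beta subunits in 1 of 4, the catalytic subunits in 2 of 3, the base scaffold and receptor in 2 of 3, the lid in 4 of 7 and the base chaperones in 0 of 3. With arrays scaled by their median, all genes had a median of 0.08 with 2379 called higher and 1461 lower, in place of 2265 and 2275. The calls there numbered 2 in the core and 7 in the regulatory particle.

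**Figure D2:**
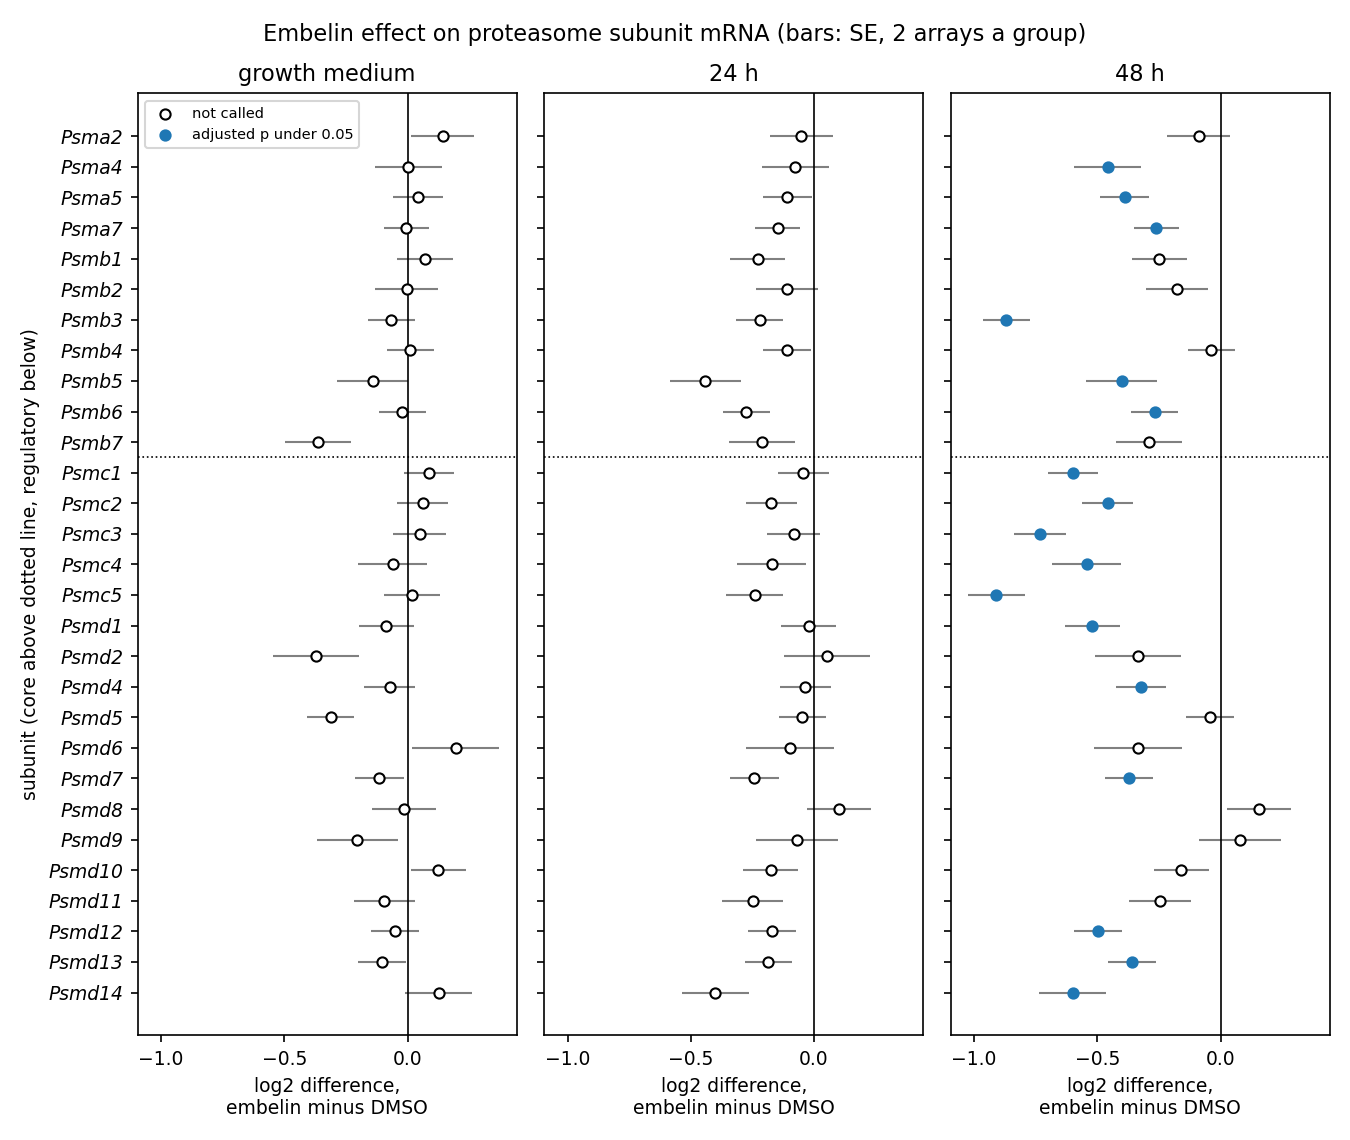
Log2 difference, embelin minus DMSO, of each subunit or assembly factor (rows) in growth medium, at 24 h and at 48 h; points are differences of means of 2 arrays, bars are SEs from the fit, and filled points have an adjusted p under 0.05. In growth medium the points lie on both sides of 0, at 24 h 27 of 29 lie to its left, and at 48 h 17 are filled, all to the left, with Psmb3 and Psmc5 farthest.

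In the core, Psmb3 differed most between the treatments at 48 h. Its embelin arrays read 13.16 and 13.05 in growth medium, 12.12 and 12.20 at 24 h, and 11.95 and 11.95 at 48 h. The DMSO arrays, given above, had moved back up by 48 h while the embelin arrays were at their lowest there. At 48 h its signal in embelin cells, set against DMSO cells, decreased by 45.3% (log2 difference -0.87, SE 0.10, adjusted p = 6.41e-05). The alpha-ring gene Psma4 came next with -0.46 (SE 0.14, adjusted p = 0.0213). At 48 h, leaving out the replicate 1 embelin array or the replicate 2 DMSO array ended the Psma4 call (adjusted p = 0.146 and 0.123), as did scaling by the array median (adjusted p = 0.0512). The alpha-ring genes Psma5 (-0.39, SE 0.10, adjusted p = 0.0106) and Psma7 (-0.26, SE 0.09, adjusted p = 0.0442) were lower as well. Psma5 lost its call without the same arrays as Psma4 (adjusted p = 0.0574 and 0.0694). Psma7 lost its call without either DMSO array in growth medium, either embelin array at 24 h or any 1 of the 4 arrays at 48 h (adjusted p = 0.0619 to 0.167), and under both other scalings (adjusted p = 0.201 and 0.052).

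Psmb5, the chymotrypsin-like site, read 9.45 and 9.44 in DMSO cells in growth medium, 9.06 and 8.80 at 24 h, and 9.01 and 8.75 at 48 h. In embelin cells it read 9.50 and 9.11, then 8.45 and 8.53, then 8.50 and 8.45. Both embelin arrays lay under both DMSO arrays at 24 h and at 48 h, and the embelin arrays in growth medium lay on either side of the DMSO ones. The differences were -0.44 at 24 h (SE 0.15, adjusted p = 0.285) and -0.40 at 48 h (SE 0.15, adjusted p = 0.0477). The call at 48 h was lost, with an adjusted p of 0.0633 to 0.256, without either DMSO array in growth medium, either embelin array at 24 h or 48 h, or replicate 1 of DMSO at 48 h. It was also lost with scaling by the array median (adjusted p = 0.296) or its 75th percentile (0.0715), with the deposited log2 values (0.105) and with no detection filter (0.098).

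Psmb6, the caspase-like site, read 12.61 and 12.58 in DMSO cells in growth medium, 11.98 and 12.13 at 24 h, and 12.04 and 12.11 at 48 h. Its embelin arrays read 12.55 and 12.59, then 11.76 and 11.80, then 11.75 and 11.87. The treatments overlapped in growth medium and did not overlap at the later times, though the difference at 24 h was not called. The difference at 48 h was -0.27 (SE 0.10, adjusted p = 0.0472), and this call was lost, with an adjusted p of 0.0647 to 0.219, without either DMSO array in growth medium, either embelin array at 24 h or any 1 of the 4 arrays at 48 h. Scaling by the array median ended it too (adjusted p = 0.125).

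Psmb7, the trypsin-like site, read 12.59 and 12.70 in DMSO cells in growth medium, 12.22 and 12.45 at 24 h, and 12.42 and 12.52 at 48 h. In embelin cells it read 12.09 and 12.48, then 12.16 and 12.09, then 12.21 and 12.16. Its embelin arrays lay under the DMSO arrays at every stage, in growth medium too, yet the probe used was called in no comparison. The difference at 48 h was -0.29 (SE 0.13, adjusted p = 0.109). The other 3 Psmb7 probes, dimmer and detected on all arrays, did not all do the same. With p adjusted over all detected probes, 1 of them was called lower under embelin at 48 h (-0.70, adjusted p = 0.0231) and in embelin cells between growth medium and 48 h (-0.67, adjusted p = 0.0163), and another was called lower in DMSO cells at 24 h (-0.46, adjusted p = 0.0338). The other core genes without a call at 48 h were Psma2 (-0.09), Psmb1 (-0.25), Psmb2 (-0.18) and Psmb4 (-0.04). A dimmer Psmb2 probe, detected on all arrays, was called lower under embelin at 48 h by the same adjustment (-0.37, adjusted p = 0.0232).

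The 6 core calls at 48 h rested on few arrays. They numbered 1 without replicate 1 of embelin at 48 h, 2 without replicate 2 of DMSO at 48 h, and 3 without replicate 1 of DMSO at 48 h, replicate 2 of embelin at 48 h, either DMSO array in growth medium or either embelin array at 24 h. Without the embelin growth-medium array that stood apart they numbered 8. Psmb3 was the core gene called in every alternative.

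In the regulatory particle the largest difference was that of Psmc5, an ATPase of the base. It read 11.52 and 11.70 in DMSO cells in growth medium, 10.93 and 11.06 at 24 h, and 11.23 and 11.42 at 48 h. Its embelin arrays read 11.61 and 11.66, then 10.65 and 10.86, then 10.41 and 10.42. The treatments gave like values in growth medium. By 24 h they did not overlap, with means of 10.99 in DMSO and 10.75 in embelin cells, but no member was called there. In that direction 22.3% of all genes did not overlap at 24 h. The Psmc5 arrays of the treatments lay farthest apart at 48 h. There the signal in embelin cells, set against DMSO cells, decreased by 46.8% (log2 difference -0.91, SE 0.12, adjusted p = 0.000157).

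Psmc3, another ATPase, took a different course in DMSO cells. It read 11.70 and 11.67 in growth medium, 11.79 and 11.71 at 24 h, and 12.14 and 12.12 at 48 h. The embelin arrays read 11.84 and 11.63, then 11.73 and 11.60, then 11.47 and 11.33. In DMSO cells the 48 h arrays were the highest, and in embelin cells they were the lowest. The treatments differed by -0.73 at 48 h (SE 0.11, adjusted p = 0.000373). On the linear scale the signal decreased by 39.8% with embelin relative to DMSO. Against growth medium Psmc3 rose by 36.2% in DMSO cells and fell by 20.8% in embelin cells (log2 difference -0.34, adjusted p = 0.0172). The latter call was lost without replicate 1 of embelin in growth medium or its replicate 2 at 48 h (adjusted p = 0.116 and 0.117).

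Psmd14, the deubiquitinase of the lid, read 10.22 and 10.30 in DMSO cells in growth medium, 9.74 and 9.86 at 24 h, and 10.02 and 10.09 at 48 h. In embelin cells it read 10.60 and 10.17, then 9.47 and 9.32, then 9.49 and 9.42. Embelin arrays straddled the DMSO ones in growth medium and lay under them at both later times. The difference was -0.40 at 24 h (SE 0.14, adjusted p = 0.302) and -0.60 at 48 h (SE 0.14, adjusted p = 0.00541; 0.0593 with arrays scaled by their median).

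Psmd4, a ubiquitin receptor of the base, read 13.10 and 13.23 in DMSO cells in growth medium, 12.70 and 12.92 at 24 h, and 12.99 and 13.03 at 48 h. Its embelin arrays read 13.07 and 13.12, then 12.78 and 12.78, then 12.69 and 12.69. The treatments overlapped at the first 2 stages and not at 48 h, where the difference was -0.32 (SE 0.10, adjusted p = 0.0277). Without any 1 of the 4 arrays at 48 h the Psmd4 call was lost (adjusted p = 0.0692 to 0.116), as it was with arrays scaled by their median (adjusted p = 0.0507).

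The other regulatory genes called lower at 48 h were Psmc1 (-0.60), Psmc4 (-0.54), Psmd1 (-0.52), Psmd12 (-0.50), Psmc2 (-0.46), Psmd7 (-0.37) and Psmd13 (-0.36). Of these, Psmc4, Psmd7 and Psmd13 lost their calls once the replicate 1 DMSO array at 48 h was left out (adjusted p = 0.051, 0.0874 and 0.0845). Psmc4 and Psmd13 also lost theirs without replicate 1 of embelin at 48 h (adjusted p = 0.0655 and 0.0904), and Psmd7 without its replicate 2 (adjusted p = 0.0871). Scaling by the array median ended the calls of Psmd7 and Psmd13 (adjusted p = 0.0733 and 0.0938). Those without a call were Psmd2 and Psmd6 (each -0.34), Psmd11 (-0.25), Psmd10 (-0.16), Psmd5 (-0.04), Psmd9 (0.08) and Psmd8 (0.16). With p adjusted over all detected probes, a dimmer Psmd11 probe was called lower (-0.44, adjusted p = 0.036). A dimmer probe of Psmd7 was not called (-0.085, adjusted p = 0.711). Psmd8, a lid subunit, read 11.67 and 11.77 in DMSO cells in growth medium, 11.85 and 11.60 at 24 h, and 11.95 and 11.85 at 48 h. Its embelin arrays read 11.78 and 11.63, then 11.81 and 11.86, then 12.20 and 11.91. These values overlapped between the treatments at every stage. The count of 11 fell to 7 without replicate 1 of DMSO at 48 h. Psmc1, Psmc2, Psmc3, Psmc5, Psmd1 and Psmd12 were the regulatory genes called in every alternative.

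**Figure D3:**
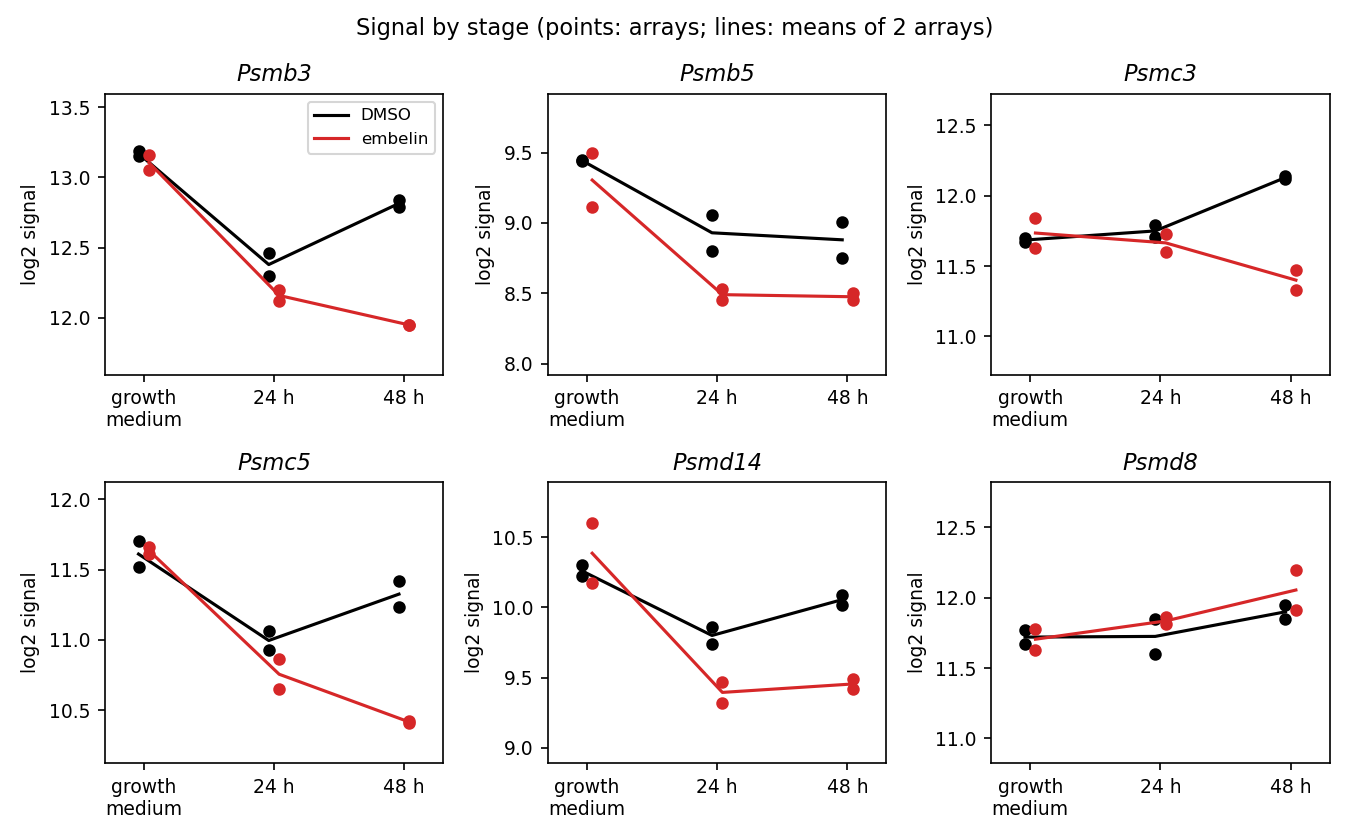
Log2 signal (vertical axes, each spanning 2 units) of Psmb3, Psmb5, Psmc3, Psmc5, Psmd14 and Psmd8 in growth medium and at 24 h and 48 h; points are arrays and lines join the means of 2 arrays, black for DMSO and red for embelin. For Psmb3, Psmc3 and Psmc5 the black line climbs between 24 h and 48 h and the red line falls, while Psmd8 shows no such gap.

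Whether the embelin difference itself changed between stages was tested as an interaction. From growth medium to 24 h, 0 members and 0 of all genes (0%) were called, with 1 member and 809 genes at an unadjusted p under 0.05 in limma. Without replicate 1 of embelin in growth medium, 18 genes were called higher and 237 lower in that interaction, and again 0 members. From growth medium to 48 h the difference became more negative for 8 of the 29 genes and less so for 0, where 12.5% of all genes were called lower and 11.4% higher. The core genes were Psmb3 (-0.80, SE 0.14, adjusted p = 0.00215) and Psma5 (-0.43, SE 0.14, adjusted p = 0.0488). The regulatory genes were the ATPases Psmc5 (-0.93, SE 0.16, adjusted p = 0.00258), Psmc3 (-0.78, SE 0.15, adjusted p = 0.00403), Psmc1 and Psmc2, and the lid genes Psmd14 (-0.73, SE 0.19, adjusted p = 0.0196) and Psmd12. Psmd14 lost its call when the replicate 1 DMSO array in growth medium (adjusted p = 0.0679) or the replicate 2 array of DMSO or embelin at 48 h (adjusted p = 0.0653 and 0.068) was left out. The core count was 1, without Psma5, when leaving out any 1 of the 11 arrays other than replicate 2 of embelin in growth medium. The regulatory count was 3 without replicate 1 of DMSO in growth medium, or replicate 2 of either treatment at 48 h. Psmb3, Psmc3 and Psmc5 kept their calls in every alternative.

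From 24 h to 48 h, a contrast added after the data had been seen, the embelin difference became more negative for Psmb3 (-0.65, SE 0.14, adjusted p = 0.0103), Psmc5 (-0.67, SE 0.16, adjusted p = 0.0203), Psmc3 (-0.65, SE 0.15, adjusted p = 0.0161) and Psmc1 (-0.55, SE 0.14, adjusted p = 0.0281), with 7.68% of all genes called lower and 6.63% higher. The 3 regulatory calls numbered 1 without either DMSO array at 24 h, replicate 2 of embelin at 24 h or replicate 2 of DMSO at 48 h, and 0 without replicate 2 of embelin at 48 h. The differences between treatments at 48 h, between 48 h and earlier stages in DMSO cells, and these interactions all use the same 2 DMSO arrays at 48 h.

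Embelin cells were also followed over time. At 24 h 9 of 11 core and 12 of 18 regulatory genes were lower than in growth medium and 0 were higher, with 29.9% of all genes called lower and 27.3% higher. The medians were -0.42 and -0.58, and -0.03 over all genes. Psmd5 (-1.08, SE 0.10, adjusted p = 8.82e-06), Psmd14 (-0.99, SE 0.14, adjusted p = 0.000117) and Psmd6 (-0.88, SE 0.18, adjusted p = 0.00158) fell most in the regulatory particle. In the core Psmb3 (-0.94, SE 0.10, adjusted p = 1.82e-05), Psmb5 (-0.81, SE 0.15, adjusted p = 0.000687) and Psmb6 (-0.79, SE 0.10, adjusted p = 5.42e-05) did. Without the growth-medium array that stood apart the counts were 8 and 11. Scaling by the array median gave 2120 genes called higher and 4567 lower, in place of 3130 and 3427, with a median of -0.24 over all genes. Whether more genes fell than in DMSO cells was not tested as such, and the interaction at 24 h called no member.

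At 48 h 8 of 11 core and 15 of 18 regulatory genes of the embelin cells were below growth medium, with 32.7% of all genes called lower. The core and regulatory medians were -0.61 and -0.65, and -0.02 over all genes. Scaled by the array median, all genes had a median of -0.19, with 2550 called higher and 4506 lower in place of 3479 and 3745. No gene called lower lost its call without the growth-medium array that stood apart. Psmb4, Psmc3, Psmd1 and Psmd9 lost theirs without the other embelin array in growth medium, replicate 1. Psmb4 and Psmd9 also lost theirs without replicate 1 of embelin at 48 h, and Psmc3 and Psmd1 without replicate 2 there. Psmc5 fell by 56.9% (-1.21, SE 0.12, adjusted p = 6.41e-06) and Psmb3 fell by 55.1% (-1.16, SE 0.10, adjusted p = 2.57e-06), and Psmd5 (-1.05), Psma4 (-1.03), Psma7 (-0.94) and Psmd14 (-0.93) followed. The lid subunit Psmd8 was the 1 member called higher (0.35, SE 0.13, adjusted p = 0.035), where 30.4% of all genes were. Psmd8 lost that call when replicate 1 of embelin at 48 h (adjusted p = 0.267) or the growth-medium array that stood apart (adjusted p = 0.152) was left out, under both other scalings, with the deposited log2 values and with no detection filter. Between 24 h and 48 h 0 of the 29 proteasome genes were called in embelin cells, where 28.8% of all genes were. Of the 29, 5 had an unadjusted p under 0.05 in limma. The ATPases lay below 0 in 5 of 5 there, from Psmc5 at -0.34 (adjusted p = 0.0513) and Psmc3 at -0.27 (adjusted p = 0.0815), and the lid lay above 0 in 6 of 7. Some of these differences were small, the mean going from 11.67 to 11.60 for Psmc4 and from 9.40 to 9.46 for Psmd14. A difference between the ATPases and the lid was not tested.

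Psmc3ip, the gene that shares only its name with the ATPases, differed from growth medium by more than any of the 29 genes at both later times, and between the treatments at 48 h. It read 10.06 and 10.16 in DMSO cells in growth medium, 8.17 and 8.73 at 24 h, and 8.20 and 8.11 at 48 h. In embelin cells it read 10.11 and 9.79, then 8.02 and 8.15, then 7.12 and 7.19. Both treatments left the growth-medium level by more than a log2 unit, and at 48 h the embelin arrays lay lowest. Psmc3ip was also called lower in embelin cells at 48 h against 24 h (-0.93, adjusted p = 0.00237), and this call stood in every alternative. The difference between treatments at 48 h was -1.002 (SE 0.17, adjusted p = 0.000984).

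The subunits were set beside 3 other complexes of many subunits, the COP9 signalosome, a relative of the lid that trims Nedd8 from cullins; the translation initiation complex eIF3, another relative of the lid; and the chaperonin CCT, which folds actin and tubulin. At 48 h embelin cells were lower in 0 of 8 COP9, 2 of 10 eIF3 and 3 of 8 CCT genes, against 19.9% of all genes, with medians of -0.07, -0.10 and -0.35. In DMSO cells between growth medium and 24 h, 4 of 8 COP9 genes were lower and 1 higher, and 5 of 10 eIF3 and 7 of 8 CCT genes were lower, against 31.5% of all genes, with medians of -0.33, -0.29 and -0.69. Between 24 h and 48 h in DMSO cells, 0 COP9, 1 eIF3 and 2 CCT genes were called higher, against 15.2% of all genes. Differences between the complexes were not tested.

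**Figure D4:**
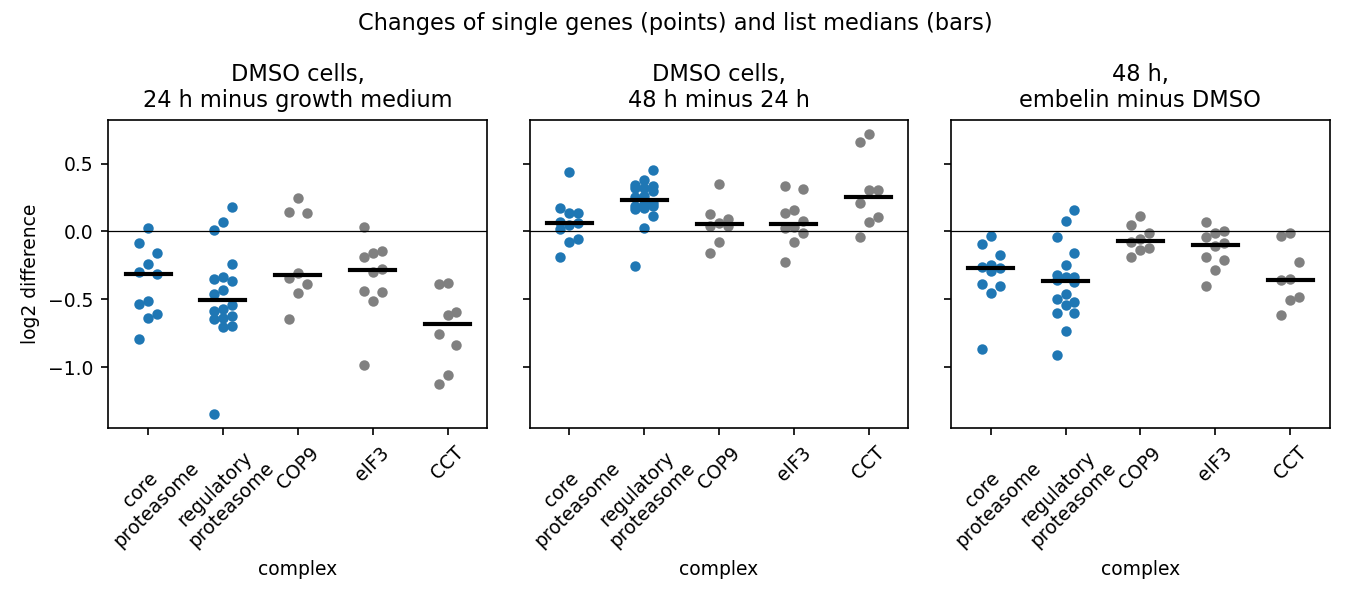
Log2 differences of single genes (points) and their medians (bars) for the core and regulatory proteasome (blue) and for COP9, eIF3 and CCT (grey), in 3 comparisons named above the panels. In the right panel, embelin minus DMSO at 48 h, the bars of the regulatory proteasome and CCT lie near each other (-0.37 and -0.35) and those of COP9 and eIF3 lie near 0 (-0.07 and -0.10).

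Genes around the proteasome are read against the shares of all genes: 31.5% were called lower and 26.1% higher in DMSO cells at 24 h, and 19.9% lower and 19.8% higher under embelin at 48 h. With lists this short, a count is a description only. How the calls of these genes fare under the alternatives is not given. The immune core subunits replace the catalytic ones after interferon. Psmb8 was not detected in either growth-medium group, read 6.76 and 6.27 in DMSO cells at 24 h, and was at least 2.16-fold higher there than in growth medium. At 48 h it read 6.48 and 6.51 in DMSO and 5.37 and 5.32 in embelin cells, where 1 of the 2 arrays detected it, so no size is given for that difference. Psmb10 rose in DMSO cells at 24 h (0.74, SE 0.13, adjusted p = 0.000531) and was lower under embelin at 48 h (-0.43, SE 0.13, adjusted p = 0.0209). Psmb9 had no probe that passed. The difference between immune and constitutive subunits was not tested.

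Of the 5 genes of activators and the inhibitor, the interferon-induced activator genes Psme1 (1.36, SE 0.13, adjusted p = 1.1e-05) and Psme2 (0.74, SE 0.12, adjusted p = 0.000295) rose in DMSO cells at 24 h. The nuclear activator Psme3 (-0.41) and the inhibitor Psmf1 (-0.99, SE 0.11, adjusted p = 2.39e-05) fell, and Psme4 was not called. In the comparison of embelin with DMSO at 48 h, 0 of these 5 were called. Of the 4 core assembly chaperones tested, 3 fell in DMSO cells at 24 h, led by Psmg1 (-0.76, SE 0.12, adjusted p = 0.000273). Under embelin at 48 h Psmg2 (-0.47, SE 0.10, adjusted p = 0.00373) and Psmg1 (-0.39, SE 0.12, adjusted p = 0.0245) were lower and Psmg3 and Pomp were not called.

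Of 10 associated proteins tested, the deubiquitinases Uchl5 (-1.02, SE 0.15, adjusted p = 0.000167) and Usp14 (-0.78, SE 0.17, adjusted p = 0.00225) and the ubiquitin receptor Adrm1 (-0.39) fell in DMSO cells at 24 h. Adrm1 (-0.40, SE 0.09, adjusted p = 0.00636) and the shuttle factor Ubqln4 (-0.39, SE 0.12, adjusted p = 0.0263) were the 2 called lower under embelin at 48 h. Of 4 ubiquitin supply genes, Rps27a, a fusion of ubiquitin with a ribosomal protein, was lower under embelin at 48 h (-0.70, SE 0.13, adjusted p = 0.00219). Of 6 genes of substrate extraction, the ATPase Vcp (-0.36, SE 0.10, adjusted p = 0.0143) and its adaptor Nsfl1c (-0.40, SE 0.10, adjusted p = 0.00825) were lower and the adaptor Ufd1 was higher (0.39, SE 0.13, adjusted p = 0.0393).

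Of the 5 tested genes of factors known to control proteasome transcription, 2 were higher under embelin at 48 h and 0 lower, where 19.8% and 19.9% of all genes were. Maff, a small partner of the antioxidant response factors, read 6.28 and 5.77 there in DMSO and 7.44 and 7.36 in embelin cells (1.38, SE 0.19, adjusted p = 0.00029). Nfe2l2, the oxidative stress factor, read 8.44 and 8.60 in DMSO and 9.04 and 9.27 in embelin cells (0.64, SE 0.12, adjusted p = 0.00167). Neither pair of groups overlapped. The other 3 genes, Nfe2l1, Ddi2 and Mafg, were not called. Nfe2l1, which raises proteasome genes when the protease is blocked, rose in DMSO cells between 24 h and 48 h (0.54, SE 0.10, adjusted p = 0.00295), from 11.69 and 11.64 to 12.28 and 12.13. Ddi2, the protease that activates Nfe2l1, was called higher there too (0.43, SE 0.15, adjusted p = 0.045), from 5.39 and 5.76 to 6.17 and 5.84. That call is close to the threshold, and how it fares under the alternatives is not given. In that comparison 15.2% of all genes were called higher. Both embelin arrays of Nfe2l1 also read higher at 48 h (12.14 and 12.01) than at 24 h (11.8 and 11.69). The same held for Ddi2 (5.75 and 5.7 against 5.55 and 5.56).

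In DMSO cells between growth medium and 24 h, when many proteasome genes fell, all 6 muscle markers tested were called higher. Des rose least (1.44, adjusted p = 3.18e-05), and 26.1% of all genes were called higher. At 48 h some of the markers were lower under embelin. Under embelin Ckm (-2.32, SE 0.55, adjusted p = 0.00707), Actn2 (-2.13, SE 0.46, adjusted p = 0.00408), Tnnt3 (-1.40, SE 0.40, adjusted p = 0.0175) and Myod1 (-0.59, SE 0.17, adjusted p = 0.0167) were lower, and Myog (-0.02) and Des (-0.25) were not called. The epithelial keratin Krt14 was detected on neither embelin array at 48 h and was at least 2.54-fold higher in DMSO cells (adjusted p = 1.2e-05). Their part in the proteasome differences was not tested. Members with further detected probes gave the same picture by sign: of 19 other probes of 14 genes, 18 had the sign of the probe used when treatments were compared at 48 h, 16 had it when DMSO cells at 24 h were set against growth medium, and 0 were called in the opposite direction in either.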

How the data were processed

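RNA of 12 C2C12 samples, 6 groups of 2 taken from the sample titles, was hybridised to Illumina MouseWG-6 bead arrays. An Agilent kit is named for labelling in the labels, but headers and probes are Illumina's, which was followed. Each deposited intensity is the mean over the beads of a probe, not normalized per the file headers. They came from GenomeStudio, version 2010.2 per the submitters' processing notes and 1.8.0 in the header of the table. The same deposited table also holds a detection fraction (1 minus the detection p), a bead standard deviation, which is a signal on the intensity scale per the file headers, and bead counts. Member probes had 23 to 59 beads per array, with a median bead error of 4.01% of the signal per probe. The number of arrays limits the precision of every comparison. The deposited series matrix holds log2 values, which equal the log2 signal less the array's 75th percentile and less the probe's median over arrays (100% within 0.006). They were used only as an alternative, and their direction is that of the signals.

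The neqc function of limma 3.58.1 (R 4.3.3) corrected the background, quantile normalized the signals and took log2 after an offset of 16. Kept were 16981 probes with a detection p under 0.01 on both arrays of some group, and the brightest per gene was used (11452 genes). Symbols were updated through RefSeq's GRCm38.p6 gene table: 27760 probes had a current symbol, 7993 a synonym, and 9528 kept the file's name. A limma model of 6 group means used every array (6 residual and 4.52 prior degrees of freedom), with Benjamini-Hochberg adjustment over all genes. The fit was also run on simulated data with independent noise and the same spread in every group. In the real arrays the spread ran from 0.13 (DMSO in growth medium) to 0.23 (embelin there). That run therefore cannot vouch for the calls made here. Bounds set the brighter group against the higher of the lowest detected signal and the probe's own signal on each dim array. Figures were drawn with matplotlib 3.10.9 in Python 3.11.15, and tables were made with pandas 2.3.3.

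The members and gene lists were chosen with earlier results of these data known. Psmb5, Psmb6, Psmb7, Psmd4 and Psmd14 are described on every array, with the 3 largest called changes each way in each particle; every other member is named with its value or its group. Array values for Psmb3, Psmc3, Psmc5, Psmd5, Psmd8 and Psmc3ip are shown as well, some chosen after their values were seen. Replicate numbers were not used as pairs; their correlation is given with the alternatives. Alternatives were other scalings, background settings, filters, probe rules, priors, a replicate block, and each array left out.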

Additional observations from a re-analysis of the deposited data

Results flagged for a closer look

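For 9 members the difference between embelin and DMSO cells was not the same at 48 h as in growth medium, by the interaction term of the limma fit, where 12.5% of all genes were called lower and 11.4% higher. Psmb3, Psmc3 and Psmc5 kept this call in all 21 alternatives, and 6 members lost it in some: Psma5 in 14, Psmd12 in 10, Psmc3ip in 9, Psmc2 in 7, Psmd14 in 4 and Psmc1 in 1. The log2 difference changed by -0.80 for Psmb3 (adjusted p = 0.00215) and by -0.43 for Psma5 (adjusted p = 0.0488) in the core. Among the base ATPases it changed by -0.93 for Psmc5 (adjusted p = 0.00258), -0.78 for Psmc3 (adjusted p = 0.00403), -0.69 for Psmc1 (adjusted p = 0.00672) and -0.52 for Psmc2 (adjusted p = 0.0273). In the lid it changed by -0.73 for Psmd14 (adjusted p = 0.0196) and by -0.45 for Psmd12 (adjusted p = 0.0386). Psmc3ip, which is no subunit, changed by -0.84 (adjusted p = 0.0271).

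Between 24 h and 48 h the same kind of change was found for 4 members, with 7.68% of all genes called lower. Of these, Psmb3 was the 1 member called in every alternative. It was -0.65 for Psmb3 (adjusted p = 0.0103), -0.67 for Psmc5 (adjusted p = 0.0203), -0.65 for Psmc3 (adjusted p = 0.0161) and -0.55 for Psmc1 (adjusted p = 0.0281). All 9 genes were lower under embelin at 48 h, and Psmb3, Psmc1, Psmc3 and Psmc5 had also risen in DMSO cells between 24 h and 48 h. Both sets of comparisons use the same 2 DMSO arrays at 48 h.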

How the results depend on the processing

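Of the 119 member results past the threshold, 1 turned its direction under any alternative: Psmd10 in DMSO cells at 48 h, at -0.023 (adjusted p = 0.897) with scaling by the array median. Counts of called genes moved over 1.5 times as follows. Scaling by the median gave 2 core and 7 regulatory calls for embelin at 48 h, 10 core calls for DMSO cells at 24 h, 13 regulatory calls for them at 48 h against growth medium and 1 against 24 h. It gave 1 core and 2 regulatory calls for the interaction from growth medium to 48 h, and 0 regulatory calls for that from 24 h to 48 h. Over all genes it called 1288 higher and 1563 lower for DMSO cells at 48 h against 24 h, in place of 1741 and 2016. In the interaction to 48 h it called 1186 higher and 935 lower, in place of 1301 and 1435. In that from 24 h it called 549 and 539, in place of 759 and 880. Scaling by the 75th percentile gave 11 regulatory calls for DMSO cells at 48 h against growth medium and 1 core call for the interaction to 48 h. Over all genes it called 2921 higher and 4472 lower in the first, in place of 3139 and 3964. In the second it called 1193 higher and 1345 lower. The deposited log2 values gave 13 regulatory calls for DMSO cells at 48 h against growth medium, with 2813 of all genes called higher and 4522 lower. Leaving out the base chaperones, chosen after seeing the data, gave 4 in that comparison. For DMSO cells at 48 h against 24 h, no detection filter gave 2 regulatory calls and the mean of all detected probes 7. Over all genes these called 1547 higher and 1782 lower, and 1874 higher and 2091 lower. The mean of all detected probes gave 5 regulatory calls for the interaction from 24 h to 48 h, with 869 of all genes called higher and 970 lower. For embelin cells at 48 h against 24 h, in place of 0 the trended, robust prior gave 2 core and 2 regulatory calls. That prior called 1657 of all genes higher and 1838 lower there, where the main fit called 3294 in either direction. No background correction, genes detected on all arrays, the mean of probes and counting Psmc3ip gave 1 regulatory call each. The cause of these changes was not tested, except that fewer or other genes were counted where a filter or a member was changed.

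With the replicate number as a block, the core count for the interaction to 48 h was 1 and the regulatory count for embelin cells at 48 h against 24 h was 1; other counts stayed within 1.5 times. Of the called members, Psma5 in that interaction (adjusted p = 0.0551) and Psmb4 in DMSO cells at 48 h (adjusted p = 0.0501) lost their calls under the block. The labels do not say what a number shares. Deviations of same-numbered arrays correlated above 0.1 in 7 of 15 pairs of groups: in all 6 pairs among the differentiation-medium groups (0.127 to 0.243), and in 1 of the 9 pairs with a growth-medium group (-0.033 to 0.119). The lowest signal on an array was 31.3 to 34.1 for replicate 1 and 34.8 to 39.8 for replicate 2. With 2 numbers per group, they were not taken as a pairing.

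With each array left out in turn, core calls ranged from 1 to 8 for embelin at 48 h and from 1 to 3 for the interaction to 48 h. Regulatory calls ranged from 7 to 12 for embelin at 48 h, from 8 to 14 for DMSO cells at 24 h, from 0 to 5 for 48 h against 24 h in DMSO cells, from 3 to 7 for the interaction to 48 h and from 0 to 3 for that from 24 h. A group left with 1 array was assumed to vary like the others.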
